A study of Mus musculus with 6 samples.

Results

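Genes that mark epithelial and mesenchymal identity were followed across 6 RNA-seq libraries of sorted mouse kidney cells. The set named 10 genes by their known roles, and 8 of them had a row among the 12125 genes listed: the epithelial genes *Cdh1*, *Cdh16*, *Epcam*, *Krt8*, *Krt18*, *Ctnna1* and *Tjp1*, and the mesenchymal gene *Zeb2*. *Vim* and *Zeb1* had no row and were not analysed here, so the mesenchymal side of the set rested on a single gene. The libraries came from 3 Trf1+/+ and 3 Trf1flox/flox mice, all of which carried a tamoxifen-inducible Cre recombinase, Col1a2-CreERT2, and the KFP reporter, a fluorescent protein switched on by Cre. The *Col1a2* promoter that drives Cre is active in fibroblasts, and *Trf1* (gene symbol *Terf1*) encodes a protein of the shelterin complex that covers telomeres. Males and females of 6 to 8 weeks of age were injected with tamoxifen 3 times a week for 8 weeks, controls included, so both groups had active Cre and differed in the floxed allele. Cells were stained for KFP and for the integrin CD29, and 500 sorted cells labelled as fibroblasts were sequenced per mouse. The labels do not give the sex of the mouse behind each library, and replicate numbers here only name the libraries.

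Epithelial cells are held together by adherens junctions, in which E-cadherin (*Cdh1*) binds its neighbour and α-catenin (*Ctnna1*) links the complex to actin, and they are sealed by tight junctions, which ZO-1 (*Tjp1*) scaffolds. Their cytoskeleton holds paired keratins such as keratin 8 (*Krt8*) and keratin 18 (*Krt18*), whereas mesenchymal cells such as fibroblasts rely on vimentin (*Vim*). In an epithelial-mesenchymal transition (EMT), factors of the ZEB, SNAI and TWIST families are known to repress epithelial genes. ZEB proteins bind E-boxes with the letters CACCTG, or CAGGTG on the other strand. In the kidney, tubule cells express E-cadherin, the kidney-specific cadherin *Cdh16* and the adhesion molecule *Epcam*, and interstitial fibroblasts normally lack them.

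The E-box lies next to the start of some of these genes, and the stretches that hold it are shown because *Zeb2* was measured in the same libraries. RefSeq promoter windows (GRCm38.p6, 250 bases before to 50 bases after the start) were searched for 4 of the genes, in 7 windows. The E-box was found in 2 windows, those of *Epcam* and *Krt18*, and was not found in the 4 windows of *Zeb2* or in that of *Tjp1*. Both strands were searched, and the 2 spellings are reverse complements of each other. Of all 32851 windows of this length, 6640 (20.2%) held it, so its presence is common, and a match describes the letters and not a bound site. The sequences run 5′ to 3′ on the strand of the gene, with the E-box in capitals. In *Epcam* (chr17:87635729-87635978, plus strand, the 250 bases before the start) the E-boxes begin 187 and 19 bases before the start. In *Krt18* (chr15:102027966-102028179, plus strand) the E-box begins 214 bases before the RefSeq start. The *Krt18* stretch ends just before the start of the gene in GENCODE, which lies 36 bases before the RefSeq start.
*Epcam*: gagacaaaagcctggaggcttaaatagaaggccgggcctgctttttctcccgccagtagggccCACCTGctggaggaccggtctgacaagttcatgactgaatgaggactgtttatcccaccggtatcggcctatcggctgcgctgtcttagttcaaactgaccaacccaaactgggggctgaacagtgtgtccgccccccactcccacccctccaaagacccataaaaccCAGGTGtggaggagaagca
*Krt18*: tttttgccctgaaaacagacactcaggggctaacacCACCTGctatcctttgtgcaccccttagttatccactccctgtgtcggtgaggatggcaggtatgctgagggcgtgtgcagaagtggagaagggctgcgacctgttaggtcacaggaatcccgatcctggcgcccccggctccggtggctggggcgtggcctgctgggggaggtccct

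The libraries held 10263382 to 12248797 reads on listed genes, and 1 read was worth 0.689 to 1.09 normalized counts, the unit used below (the reads of a gene divided by the size factor of its library). The floor was set at 3 reads per library, which covers counting error only. The library labelled Trf1+/+ replicate 1 stood apart. Its median over listed genes was 13.4 normalized counts against 118 to 148 in the other 5 libraries. *Terf1* had 0.891, 253 and 235 normalized counts in Trf1+/+ replicates 1, 2 and 3 and 110.0, 7.65 and 12.4 in Trf1flox/flox replicates 1, 2 and 3, so a library labelled as a control, Trf1+/+ replicate 1, held 1 read, against its label. The library labelled Trf1flox/flox replicate 1, with 128 reads, lay well above the other 2 of its group and below the other 2 Trf1+/+ libraries. All groups are used as labelled, and a direction between genotypes below is one between labels. *Itgb1*, which encodes CD29, had 4.45 normalized counts in Trf1+/+ replicate 1 and 360 to 1735 in the others. Among genes that were high elsewhere, 12.9% were listed at 0 in Trf1+/+ replicate 1 and 9.01% in Trf1flox/flox replicate 2, against 0.932% to 3.68% in each of the other 4.

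The label of fibroblasts was compared with cell type markers before the identity genes were read, and the listed markers were mainly those of tubules. Of 18 fibroblast markers, 2 had a row. *Col1a2*, a collagen gene of fibroblasts whose promoter drives Cre, had at most 2 reads in any library. *Dcn*, which encodes the matrix proteoglycan decorin, had 0, 0 and 93.6 normalized counts in Trf1+/+ mice and 0.859, 97.3 and 39.3 in Trf1flox/flox mice. By contrast, all 16 proximal tubule, 6 loop of Henle and 7 distal tubule markers were listed, and their summed levels reached 26255 to 150523, 53748 to 157632 and 30660.4 to 104833 normalized counts per library. *Umod*, which encodes the uromodulin of the thick ascending limb, ranged from 21896 to 80777 normalized counts. Collecting duct markers, 11 of 12 listed, summed to 851 to 19698 normalized counts. The fibroblast list summed to 1.66 to 98.4, pericyte and smooth muscle markers (3 of 10) to 0 to 280.1, podocyte markers (1 of 6) to 0 to 131, endothelial markers (2 of 12) to 1.72 to 307 and leukocyte markers (5 of 13) to 0 to 2513. The libraries are therefore described below by their genotype labels and not as fibroblasts. In such bulk samples, fewer cells of a type and less RNA per cell cannot be told apart.

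**Figure D1:**
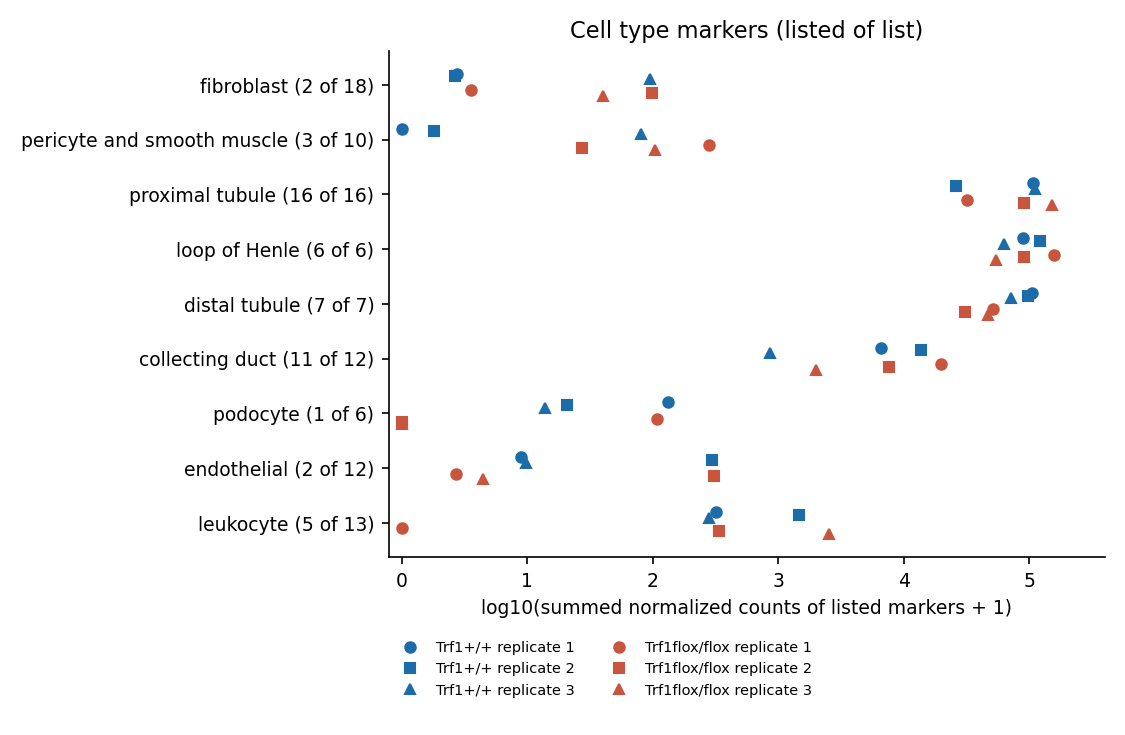
Summed normalized counts of the listed markers of each cell type, on a log10 axis after adding 1, with 1 point per library, Trf1+/+ in blue and Trf1flox/flox in red. The proximal tubule, loop of Henle and distal tubule sums lie at or above 26255 in every library, and the fibroblast sums lie at or below 98.4.

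Against this background the epithelial identity genes were abundant and *Zeb2* was low. Levels were compared per kilobase of exon, over the union of annotated exons, which can be longer than a single transcript (19.9 kilobases for *Zeb2*). On this scale the median over the 6 libraries was 1068 normalized counts for *Cdh16* (range 339 to 1649) and 708 for *Epcam* (439 to 1112). It was 348 for *Ctnna1* (301 to 489), 336 for *Krt8* (61.8 to 618) and 241 for *Cdh1* (79.7 to 695). It was 143 for *Krt18* (0 to 578), 9.94 for *Tjp1* (0.140 to 47.1) and 1.51 for *Zeb2* (0 to 11.5). The ranges of neighbours in this order overlapped, but the lowest library of each of the first 5 genes lay above the highest library of *Tjp1* and of *Zeb2*. *Lrp2*, which encodes the proximal tubule receptor megalin, had a median of 141 normalized counts per kilobase on the same scale, below that of *Cdh1*, and *Slc12a3*, the sodium chloride cotransporter of the distal tubule, had 2008. *Zeb2* was the lowest per kilobase of the 8 genes in 4 libraries, and 5 to 7 of the 7 epithelial genes lay above it in each library. Before division by length, 6 of the 7 lay above it in Trf1+/+ replicate 2.

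**Figure D2:**
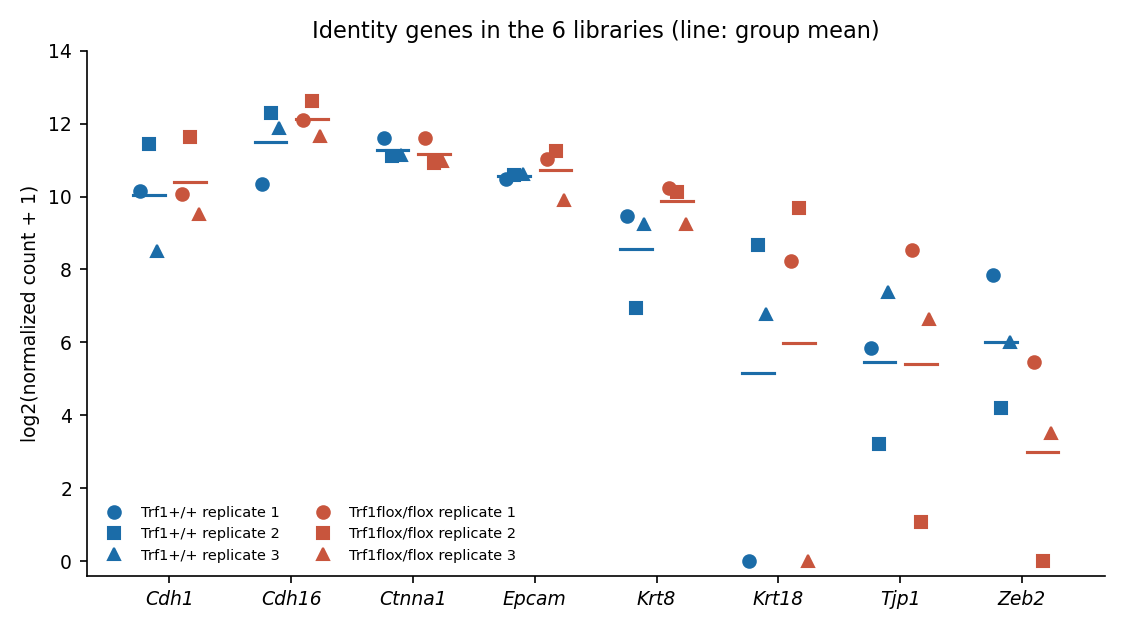
Levels of the 8 identity genes as log2(normalized count + 1) in each library, with the mean of each genotype as a line. The libraries lie closest together for *Ctnna1* and *Epcam*, those of *Krt18*, *Tjp1* and *Zeb2* spread down to 0 or close to it, and the genotypes overlap for every gene.

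The cadherins and α-catenin were present in all 6 libraries. *Cdh1* (ENSMUSG00000000303, chromosome 8, spanning 106603351 to 106670246 of build GRCm38) reached 1136, 2769.9 and 365 normalized counts in Trf1+/+ replicates 1, 2 and 3 and 1068, 3180.1 and 730.4 in Trf1flox/flox replicates 1, 2 and 3. The highest library of each genotype was its replicate 2 and the lowest its replicate 3. The ranges of the genotypes overlapped, 365 to 2769.9 in Trf1+/+ mice and 730.4 to 3180.1 in Trf1flox/flox mice. Trf1+/+ mice averaged 1423 ± 1228 (SD, n = 3) and Trf1flox/flox mice 1659.5 ± 1328 (SD, n = 3), and the log2 fold change of Trf1flox/flox over Trf1+/+ was 0.37 (standard error 0.79, adjusted p = 0.985 from limma).

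*Cdh16*, which encodes the kidney-specific cadherin (ENSMUSG00000031881, chromosome 8, 104601911 to 104624396), had 1287, 5024 and 3747 normalized counts in Trf1+/+ mice and 4352, 6254 and 3217 in Trf1flox/flox mice. Trf1+/+ replicate 1 was the lowest library, and the other 5 lay within 3217 to 6254. The log2 fold change was 0.62 (standard error 0.55, adjusted p = 0.970 from limma). Relative to *Cdh1* the level of *Cdh16* varied from 1.13 times in Trf1+/+ replicate 1 to 10.3 times in Trf1+/+ replicate 3, before division by length, so the pair of cadherins did not keep a fixed ratio.

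*Ctnna1* (ENSMUSG00000037815, chromosome 18, 35118859 to 35254779), which encodes the α-catenin that ties cadherins to actin, had 3144, 2211 and 2256 normalized counts in Trf1+/+ mice and 3129, 1934 and 2023 in Trf1flox/flox mice. It was the steadiest gene of the set: the highest library had 1.63 times the lowest. Its log2 fold change was -0.12 (standard error 0.45, adjusted p = 0.992 from limma). In exons it shares 95 bases with *Lrrtm2* on the other strand, and these libraries do not keep strand.

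*Epcam* (ENSMUSG00000045394, chromosome 17, 87635979 to 87651129), an adhesion molecule of epithelial surfaces, had 1435, 1550.2 and 1558 normalized counts in Trf1+/+ mice and 2103, 2440.3 and 963 in Trf1flox/flox mice. The 3 Trf1+/+ libraries lay close together, and the Trf1flox/flox libraries lay on both sides of them. The log2 fold change was 0.17 (standard error 0.52, adjusted p = 0.989 from limma). Trf1+/+ replicate 1, which stood apart over all genes, lay within the range of the other libraries for *Epcam* and at its upper end for *Ctnna1*.

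The keratins behaved unlike each other. *Krt8* (ENSMUSG00000049382, chromosome 15, 101996698 to 102004482) had 706, 121 and 611 normalized counts in Trf1+/+ mice and 1209.8, 1110.3 and 602 in Trf1flox/flox mice. Trf1+/+ mice averaged 479 ± 314 (SD, n = 3) and Trf1flox/flox mice 974 ± 326 (SD, n = 3), and Trf1flox/flox replicate 3 lay below 2 of the Trf1+/+ libraries. It shares 101 exonic bases with *Gm36026* on the other strand, whose reads cannot be separated here. Its log2 fold change of 1.31 (standard error 0.80) had the smallest unadjusted p of the 8 genes (0.128, adjusted p = 0.970 from limma). *Krt18* (ENSMUSG00000023043, chromosome 15, 102028180 to 102032027), the usual partner of keratin 8, had 0, 410.1 and 109 normalized counts in Trf1+/+ mice and 302, 830.5 and 0 in Trf1flox/flox mice. It was listed at 0 in a library of each genotype in which *Krt8* had 706 and 602 normalized counts. Per kilobase, *Krt8* had 0.216, 4.10, 2.94 and 0.981 times the level of *Krt18* in the 4 libraries where *Krt18* was above 0, Trf1+/+ replicates 2 and 3 and Trf1flox/flox replicates 1 and 2. The log2 fold change of *Krt18* was 0.83 with a standard error of 3.09.

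*Tjp1* (ENSMUSG00000030516, chromosome 7, 65296165 to 65527781), the scaffold ZO-1, had 56.1, 8.29 and 165 normalized counts in Trf1+/+ mice and 368, 1.09 and 99.2 in Trf1flox/flox mice. The lowest values were in replicate 2 of each genotype, the libraries in which *Cdh1* was highest. Its log2 fold change was -0.06 (standard error 2.55), and it had the opposite sign, 1.06 and 1.04, in edgeR and DESeq2 on the reads. *Zeb2* (ENSMUSG00000026872, chromosome 2, 44983632 to 45117395), a zinc finger repressor of epithelial genes, had 229, 17.4 and 64.0 normalized counts in Trf1+/+ mice and 43.0, 0 and 10.3 in Trf1flox/flox mice. These values rest on 257, 21 and 65 reads and on 50, 0 and 15 reads. The highest library was Trf1+/+ replicate 1, the library that stood apart, and Trf1+/+ replicate 2 lay below Trf1flox/flox replicate 1. The log2 fold change was -3.04 (standard error 2.41, adjusted p = 0.970 from limma). *Zeb2* shares 653 exonic bases with its antisense gene *Zeb2os*, whose reads cannot be told apart from its own in libraries without strand.

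The spread between mice of the same genotype differed widely among the 8 genes. The standard deviation of log2(normalized count + 1) within genotypes was 0.338 for *Ctnna1*, 0.511 for *Epcam*, 0.806 for *Cdh16*, 1.07 for *Krt8* and 1.30 for *Cdh1*. It reached 2.34 for *Zeb2*, 3.12 for *Tjp1* and 4.91 for *Krt18*, against a median of 2.17 over the 9966 genes tested. *Ctnna1* was at the 1.94 percentile of spread among genes tested and *Krt18* at the 99.9 percentile. High spread is common at the level of *Krt18* and *Tjp1*: of 6150 genes with a mean of 50 to 500 normalized counts, 62.0% were at the floor in at least 1 library. The median spread of these genes was 2.72, below that of *Tjp1* and well below that of *Krt18*. Of 1081 genes with a mean of 1000 to 6000, 0.648% were at the floor in at least 1 library. *Cdh1*, in that upper range, varied more than its peers, whose median was 0.658.

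**Figure D3:**
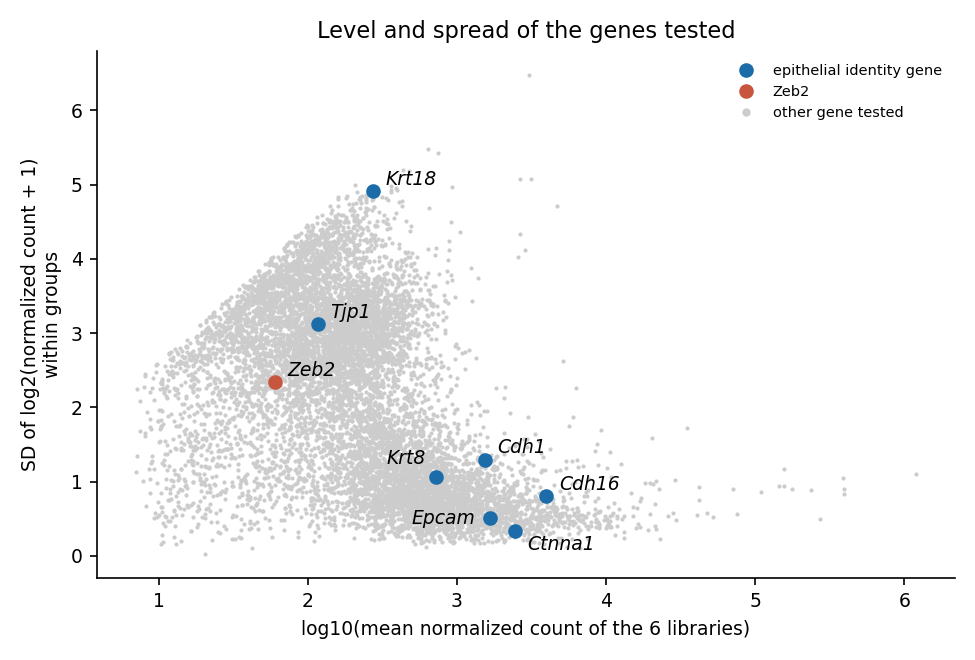
Mean normalized count over the 6 libraries (log10 axis) against the standard deviation of log2(normalized count + 1) within genotypes, with 1 point per gene tested. *Ctnna1* (0.338) and *Epcam* (0.511) lie at the lower edge, *Krt18* (4.91) lies near the top, and spread falls with level.

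Across the 6 libraries the members did not move as a block. As a description over 6 points that share libraries and depth, the highest Pearson correlations of log2 values were 0.84 between *Cdh16* and *Krt18* and 0.81 between *Epcam* and *Krt18*. The lowest were -0.83 between *Cdh1* and *Tjp1* and -0.77 between *Cdh16* and *Zeb2*, and it was -0.08 between *Krt8* and *Krt18*. Each of these pairs includes a gene at the floor in some library. *Krt18* was at 0 in 2 libraries, and in Trf1flox/flox replicate 2 *Tjp1* had 1 read and *Zeb2* 0. The genes whose pattern was most like that of *Cdh1* were *Rnaset2b*, *Copz2* and *Papss1*, with correlations of 0.99, 0.98 and 0.98 over the 6 libraries. They are the highest values of a search over all genes tested, so values this high over 6 points do not single these genes out. *Vim*, for which the same search was planned, had no row.

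The comparison of genotypes asked whether epithelial or mesenchymal genes shifted between the libraries labelled Trf1flox/flox and Trf1+/+, and no identity gene differed beyond the spread between mice. All 8 genes passed the filter on low values (10 or more normalized counts in 3 or more libraries), and 0 of 8 had an adjusted p under 0.05 in limma (0% of all genes tested), edgeR or DESeq2 (0.617% of 9407 genes, 58 genes). At an unadjusted p under 0.05 the count was also 0 of 8 in each of the 3 tools, against 3.13% of all genes in limma. The groups overlapped for all 8 genes. Of all genes, 5.35% had all 3 Trf1flox/flox libraries above all 3 Trf1+/+ libraries and 3.33% had them below. At these shares, a count of 0 among 8 genes does not set them apart from all genes. An exact permutation test of 3 against 3 libraries cannot go below a two-sided p of 0.1.

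The sign of the change was mixed. The log2 fold change was above 0 for 5 of the 8 genes and below 0 for 3, compared with 55.9% of all genes above 0. The median was 0.27 over the 8 genes and 0.37 over the 7 epithelial genes, beside 0.20 over all genes tested. The shift of all genes was 0.44 after scaling to the upper quartile and -0.02 without Trf1+/+ replicate 1, and the epithelial median was 0.65 and 0.12 under these settings. Over all alternatives the epithelial median changed sign. It ran from -0.13 without both Trf1+/+ replicate 1 and Trf1flox/flox replicate 2 to 0.82 without Trf1flox/flox replicate 3, and was -0.04 with limma array weights. Relative to the shift of all genes, *Epcam* moved by -0.02 and *Krt8* by 1.12 on the log2 scale.

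For the 5 abundant genes the 95% interval of the fold of Trf1flox/flox over Trf1+/+ was 0.468 to 1.81 for *Ctnna1*, 0.516 to 2.46 for *Epcam*, 0.672 to 3.50 for *Cdh16*, 0.392 to 4.26 for *Cdh1* and 0.739 to 8.37 for *Krt8*. Each of these ranges includes no change. For *Krt18*, *Tjp1* and *Zeb2* the intervals on the log2 scale were -5.92 to 7.57, -5.62 to 5.50 and -8.29 to 2.22, which span both directions.

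**Figure D4:**
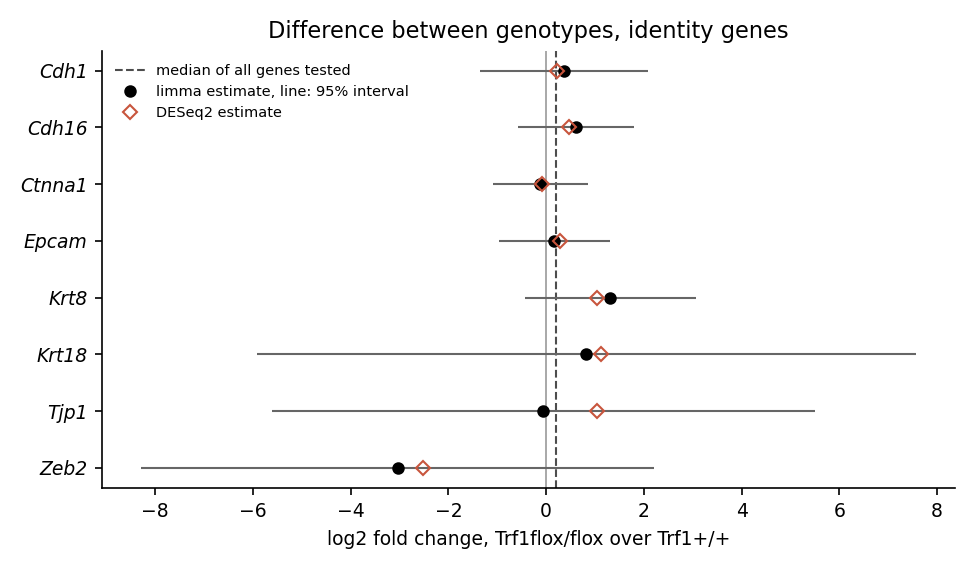
Log2 fold change of Trf1flox/flox over Trf1+/+ for each identity gene, with the limma estimate and its 95% interval (black) and the DESeq2 estimate (open diamond). The dashed line is the median of all genes tested (0.20), and every interval spans 0.

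The summed markers of 1 tubule segment did not overlap between genotypes. Summed distal tubule markers were 104833, 97487 and 71084 normalized counts in Trf1+/+ mice and 50883, 30660.4 and 47022 in Trf1flox/flox mice, the lowest Trf1+/+ library lying above the highest Trf1flox/flox library. All 7 of these markers had a log2 fold change below 0, with a median of -1.08, beside 4395 of the 9966 genes tested. The groups did not overlap for 5 of the 7, all lower (3.33% of all genes), and 3 of 7 had an unadjusted p under 0.05 in limma (3.13% of all genes), none after adjustment. Collecting duct markers were 6573, 13598 and 851 in Trf1+/+ mice and 19698, 7577 and 2009 in Trf1flox/flox mice. *Cdh1* was lowest in the library of each genotype with the lowest collecting duct sum. At the upper end the order matched in Trf1+/+ mice, where both were highest in replicate 2. It did not match in Trf1flox/flox mice, where *Cdh1* was highest in replicate 2 and the sum in replicate 1. The part of nephron segment makeup in the levels of the identity genes was not tested. The sums of the other segments overlapped between genotypes. The median log2 fold change was 0.92 over 16 proximal tubule markers, 14 of them above 0 (55.9% of all genes). It was 0.09 over 6 loop of Henle markers, 4 of them above 0. The median proximal tubule sum was 107399 normalized counts in Trf1+/+ mice and 91082 in Trf1flox/flox mice.

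Other genes of the junctions likewise passed no adjusted threshold in limma. Of 17 adherens junction partners 14 were tested, 13 with a log2 fold change above 0 and 1 below, with a median of 0.89. Of all genes tested, 55.9% lay above 0, with a median of 0.20. Without Trf1+/+ replicate 1 the median was 0.62 for the list and -0.02 for all genes. β-Catenin (*Ctnnb1*), which binds the tail of E-cadherin, had 1450.1, 172 and 884 normalized counts in Trf1+/+ mice and 383, 752 and 784 in Trf1flox/flox mice, a log2 fold change of 0.01 (standard error 0.84). *Cdh6*, a cadherin of the proximal tubule lineage, had the second smallest unadjusted p of that list in limma (0.174), with a log2 fold change of 2.69. It had 6 reads in Trf1+/+ replicate 1. *Ctnnal1*, a relative of α-catenin, had the smallest (0.114), with 8.02, 262 and 862 normalized counts in Trf1+/+ mice and 749, 1537 and 319.7 in Trf1flox/flox mice. No gene of this list had groups that did not overlap.

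Of the tight junction scaffolds, 15 of 17 were tested, 8 above and 7 below 0, with a median of 0.32 that ran from -0.09 without Trf1flox/flox replicate 3 to 0.87 without Trf1flox/flox replicate 2. *Cgnl1*, which encodes paracingulin, was the most abundant, with 2896, 1356 and 727 normalized counts in Trf1+/+ mice and 1640.2, 2233 and 542 in Trf1flox/flox mice. *F11r*, which encodes the junctional adhesion molecule A, had 3.56, 1074 and 926 in Trf1+/+ mice and 1517, 990.1 and 582 in Trf1flox/flox mice. Its log2 fold change of 2.53 (standard error 1.69) came with 4 reads in Trf1+/+ replicate 1. *Patj*, a polarity scaffold, differed by 2.17 on the log2 scale (standard error 1.53), with 8 reads in that library.

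Among keratins and desmosome genes 9 of 14 were tested, 5 above and 4 below 0 (55.9% of all genes above 0), with a median of 0.66. The count above 0 and the median include *Dsp*, whose direction was fixed by the filter. *Dsp*, which encodes desmoplakin, the link of desmosomes to keratin filaments, had 2.67, 1.66 and 0 normalized counts in Trf1+/+ (3, 2 and 0 reads) and 137, 433 and 276 in Trf1flox/flox mice. The adjusted p was 0.970 in limma and 3.8e-04 in DESeq2, so the call depended on the tool. All 3 Trf1+/+ libraries were at the floor for *Dsp*, which passed the filter on low values only through the Trf1flox/flox libraries, so that its groups had to differ, and the values are given as a description. *Krt7*, another keratin of simple epithelia, had 1446, 1735 and 650.3 normalized counts in Trf1+/+ mice and 2493, 1485 and 349 in Trf1flox/flox mice, a log2 fold change of -0.11 (standard error 0.75). *Pkp4*, a plakophilin-related armadillo protein, differed by 0.80 on the log2 scale (standard error 0.74), and *Plec*, which encodes the cytoskeletal linker plectin, by 3.68 (standard error 2.29). *Plec* had 2 and 7 reads in Trf1+/+ replicates 1 and 2.

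Of the epithelial regulators and surface proteins 20 of 22 were tested, 16 above and 4 below 0 (55.9% of all genes above 0), with a median of 1.10. That median was 0.87 without Trf1+/+ replicate 1, 0.38 in edgeR and 0.44 in DESeq2. The groups did not overlap for 2 higher genes, *Spint1* and *Rab25*, and for 1 lower gene, beside 5.35% and 3.33% of all genes. *Spint2*, an inhibitor of membrane serine proteases, was its most abundant gene, with 4723, 3113 and 1228 normalized counts in Trf1+/+ mice and 2358, 2079 and 1973 in Trf1flox/flox mice. The related *Spint1* had 45.4, 13.3 and 379 in Trf1+/+ mice and 398, 611 and 404 in Trf1flox/flox mice, with an unadjusted p of 0.0603 in limma. *Rab25*, a small GTPase of epithelial vesicle traffic, was named after its values were seen. *Rab25* had 199, 4.14 and 102 in Trf1+/+ mice and 225, 256 and 207 in Trf1flox/flox mice. *Cd24a*, a surface glycoprotein, differed by 0.28 on the log2 scale (standard error 0.57). *Ehf*, an epithelial transcription factor of the ETS family, had 0, 263 and 0.985 in Trf1+/+ mice and 252, 387 and 257 in Trf1flox/flox mice, and its groups overlapped.

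Mesenchymal genes were few. Of 15 transcription factors known for EMT, besides the ZEB genes, 6 had a row and 5 were tested, 2 above and 3 below 0. Their median of -0.15 turned to 0.25 in edgeR and 0.20 in DESeq2, and ran from -2.05 without Trf1flox/flox replicate 1 to 0.83 without Trf1+/+ replicate 2. *Snai1*, *Snai2* and *Twist1* had no row and were not analysed here. *Sox4*, a factor of the SOX family, had 118, 377 and 130.1 normalized counts in Trf1+/+ mice and 443, 191 and 81.3 in Trf1flox/flox mice. *Sox9*, a transcription factor known from tubule repair, had 46.3, 303 and 6.90 in Trf1+/+ mice and 0.859, 2.19 and 11.03 in Trf1flox/flox mice, with a log2 fold change of -3.55 (standard error 2.19, adjusted p = 0.970 from limma). *Tead1* and *Tcf3*, both transcription factors, differed by -1.65 (standard error 2.06) and by 2.81 (standard error 2.42) on the log2 scale. *Tead1* had 1 read in Trf1flox/flox replicate 2, and *Tcf3* had 0 reads in Trf1+/+ replicates 1 and 2.

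Of 20 genes of the mesenchymal and contractile cytoskeleton, 10 had a row and 9 were tested, 5 above and 4 below 0 (55.9% of all genes above 0), with a median of 0.05. The count above 0 and the median include *Cald1*, whose direction was fixed by the filter. *Acta2*, the smooth muscle actin of myofibroblasts, had no row. *Cald1*, which encodes the actin-binding caldesmon, had 1.78, 0 and 1.97 normalized counts in Trf1+/+ (at most 2 reads) and 94.5, 18.6 and 13.8 in Trf1flox/flox mice. Like *Dsp*, it passed the filter only through the Trf1flox/flox libraries, so its values are a description (adjusted p = 0.970 in limma). *Tpm4*, a tropomyosin and the most abundant gene of the list, had 2129, 5.80 and 460.2 in Trf1+/+ mice and 547, 36.1 and 104 in Trf1flox/flox mice, which is -0.55 on the log2 scale (standard error 1.97). The related *Tpm1* had 5.34, 98.6 and 365 in Trf1+/+ mice and 412, 1425 and 338 in Trf1flox/flox mice, a log2 fold change of 3.25 with an unadjusted p of 0.0518 in limma. Of 16 matrix and surface genes of mesenchyme, 5 had a row and 1, the integrin *Itgav*, was tested (log2 fold change -0.37, standard error 0.74). *Sparc*, which encodes a matrix glycoprotein, had 0, 56.3 and 104 normalized counts in Trf1+/+ mice and 0.859, 0 and 1.38 in Trf1flox/flox mice. *Fn1*, which encodes fibronectin, had 7.13, 0 and 10.8 normalized counts in Trf1+/+ mice and 12.9, 3.28 and 4.82 in Trf1flox/flox mice, and neither gene passed the filter for the test.

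**Figure D5:**
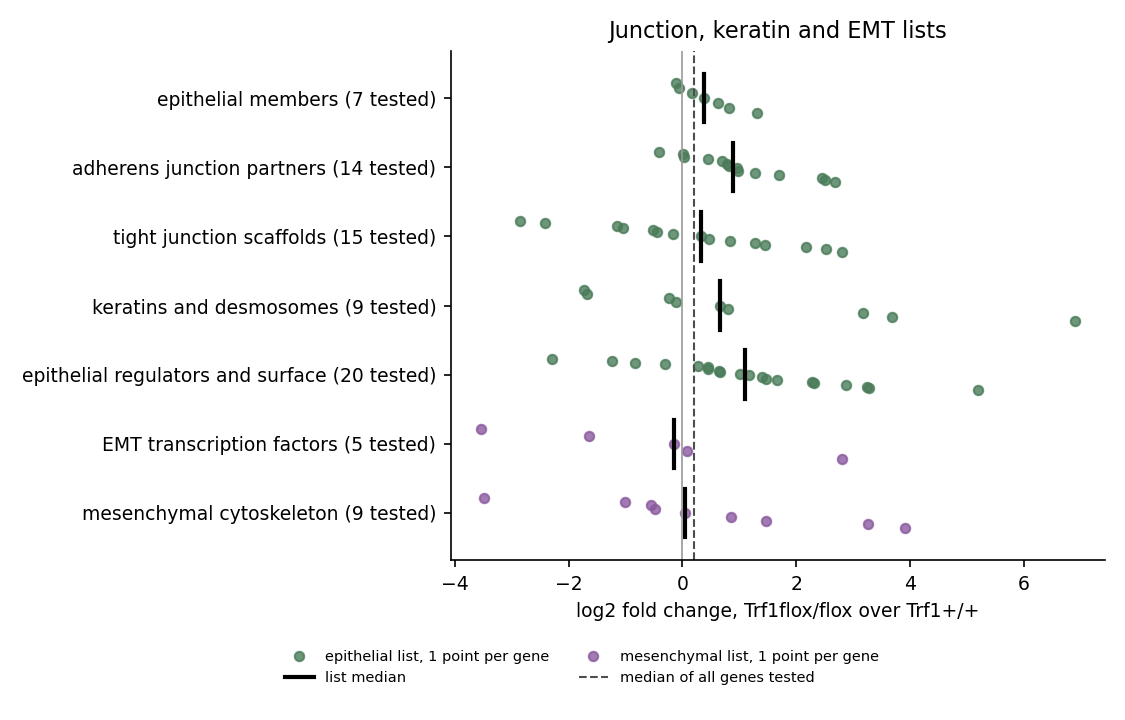
Log2 fold change of each tested gene in 7 lists, epithelial in green and mesenchymal in purple, with the list median as a bar. The mesenchymal matrix list, with 1 gene tested, is not drawn. Medians of the lists drawn run from -0.15 for the EMT transcription factors to 1.10 for the epithelial regulators, and genes of every list drawn lie on both sides of 0.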

How the data were processed

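RNA of 500 sorted kidney cells per mouse was reverse transcribed with oligo(dT) priming, amplified by PCR and sequenced without strand. The submitters' processing notes name TopHat2 2.0.10, Bowtie 1.0.0, SAMtools 0.1.19, HTSeq 0.6.1 and DESeq2. The notes name GRCm39 and the study's methods GRCm38, and the coordinates here come from GENCODE M21 on GRCm38. The deposited signal values are normalized counts, gene reads that the authors divided by a size factor per library, and 100% of them were whole multiples of 1 read within 0.01, so reads were recovered.

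Differences were tested on log2(normalized count + 1) with limma 3.58.1 (R 4.3.3, trend), two-sided, over the 9966 genes that reached 10 normalized counts in 3 or more libraries, with Benjamini-Hochberg adjustment over all of them. edgeR 4.0.16 and DESeq2 1.42.0 on the recovered reads were alternatives, beside other pseudocounts, filters, scalings and leaving out libraries. The scripts were checked on simulated counts, which does not measure what they can detect in these libraries. P-values measure the spread between 3 mice per genotype. Levels per kilobase used the union of exons.

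The members and gene lists were chosen with earlier results of these data known. Named genes were all members and, per list, the 2 of highest mean and the 2 of smallest p, with *Snai1*, *Snai2*, *Twist1*, *Acta2*, *Col1a2*, *Fn1* and *Cdh2* where they had a row. For cell type lists only a selection is given. No protein sequence was used here, and 1 promoter result and the values of 1 listed gene are not reported here.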

Additional observations from a re-analysis of the deposited data

How the results depend on the processing

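No identity gene had an adjusted p under 0.05 under any of the 15 alternatives, and *Krt8* (0.50 to 1.77) and *Zeb2* (-4.27 to -0.63) kept their direction throughout, while the sign of the other 6 turned under at least 1. With limma array weights the log2 fold change was -0.17 for *Cdh1*, -0.17 for *Epcam*, -3.30 for *Krt18* and 1.14 for *Tjp1*. Scaling to the upper quartile gave 0.16 for *Ctnna1* and 0.25 for *Tjp1*. *Tjp1* was 0.26 with a pseudocount of 5, 1.06 in edgeR and 1.04 in DESeq2. Leaving out each library in turn gave -0.39 to 1.07 for *Cdh1* (-0.39 without Trf1+/+ replicate 3 and -0.25 without Trf1flox/flox replicate 2), 0.03 to 1.02 for *Cdh16*, -0.09 to 0.58 for *Epcam*, -1.75 to 3.82 for *Krt18*, -0.34 to 0.05 for *Ctnna1* and -1.62 to 2.11 for *Tjp1*. Without both Trf1+/+ replicate 1 and Trf1flox/flox replicate 2, an alternative chosen after seeing the data, the values were -0.19 for *Cdh1*, -0.21 for *Cdh16*, -0.13 for *Epcam*, -3.61 for *Krt18*, 0.17 for *Ctnna1*, 2.29 for *Tjp1* and -0.63 for *Zeb2*.

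DESeq2 called 58 genes, none of them a member, where limma and edgeR called 0 (312 and 196 at an unadjusted p under 0.05). The number of members whose groups did not overlap was 1 after scaling to the upper quartile (*Krt8*, higher) and 0 to 2 when a library was left out: *Zeb2*, lower, without Trf1+/+ replicate 2, *Ctnna1* and *Zeb2*, lower, without Trf1flox/flox replicate 1, and *Epcam* and *Krt8*, higher, without Trf1flox/flox replicate 3. The share over all genes was not computed under these settings. Groups separate more easily with fewer libraries, so these counts do not set the members apart from all genes. The median of the epithelial regulators was 0.38 in edgeR, 0.44 in DESeq2 and 0.28 to 1.66 when a library was left out, and that of the collecting duct markers was -2.36 to 1.30. Array weights turned the median of keratins and desmosome genes to -0.02. The causes were not tested. No paired analysis was possible because the replicate numbers follow the accession order and pair no mice.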
